A study of Homo sapiens with 2 samples.

Results

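The loci described here are those of 7 protein-coding genes for erythroid transcription regulators, TAL1, CBFA2T3, ZFPM1, GATA1, GATA2, KLF1 and NFE2, and of 3 antisense genes that lie within TAL1 and CBFA2T3, namely AL135960.1, AC092384.1 and AC092384.2. These 10 of the 58347 genes in the deposited count table were chosen by symbol, with earlier results of these data known. They are known regulators and the antisense genes inside TAL1 and CBFA2T3, while antisense genes inside ZFPM1 and GATA2 are not among them. Shares and ranks given below describe genes chosen in that knowledge and carry no test. All 10 were matched to GENCODE 29. RNA bound to U2AF2 was profiled by eCLIP in untreated cells of the human erythroleukemia line HEL, as 1 group of 2 biological replicates. In eCLIP, ultraviolet light fixes RNA to the protein that touches it, an antibody recovers the protein, and the attached RNA fragments are sequenced. The labels name HEL as the source, while their cell line field gives the name of the protein, U2AF2. No input or control library was analysed here, which means that no value is an enrichment over input, and results hold for this single line.

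U2AF2, the larger of the U2AF subunits, is a splicing factor that recognises the pyrimidine-rich stretch that precedes the AG at the end of an intron. TAL1 is a basic helix-loop-helix factor that sits on erythroid enhancers with E proteins, LMO2, LDB1 and GATA1, and CBFA2T3 is a corepressor recruited to that complex. GATA2 acts in stem and progenitor cells and GATA1 in maturing erythroid and megakaryocytic cells, where ZFPM1 (FOG1) binds GATA1 as its cofactor. KLF1 activates adult beta-globin and many other erythroid genes. NFE2 is the subunit of the NF-E2 factor that pairs with a small Maf protein. An antisense gene is transcribed from the other DNA strand of a host gene, so its exons can lie over exons, introns or splice sites of the host.

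The table held 995428 counts on genes in replicate 1 and 1350116 in replicate 2. Genes took 2.66% and 2.60% of the uniquely mapped reads in replicates 1 and 2, and 97.3% and 97.4% were tallied on no feature. How the counting treated strand is not given in the sources used here. For every gene below, the strand of origin of its reads is therefore uncertain, and the split between a gene and its antisense partner rests on that unknown setting. Levels are given as CPM, the count per 1000000 scaled gene counts. The limit that a count of 0 allows, set at 3 counts, was 2.98 CPM for replicate 1 and 2.25 CPM for replicate 2. By total counts, defining markers did not set the cells apart in this table. The 8 erythroid markers held 95 and 118 counts in total and the 13 markers of T cells, B cells, monocytes, hepatocytes and neurons 96 and 128. At least 10 counts in each library were reached by 2 of the 8 and 1 of the 13, beside 24.8% of protein-coding genes. In both libraries 0 of the 8 and 5 of the 13 held no count. Of the 5 megakaryocyte markers, with 4 and 11 counts in total, none reached 10 counts in each library.

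The most heavily counted members were a pair of antisense genes whose exons lie over 3′ splice sites of their hosts. AL135960.1 (chromosome 1, 47225797 to 47230750, plus strand, GRCh38) covers with its exons 3 of the 6 annotated 3′ splice sites of TAL1 (47216290 to 47232220, minus strand). AC092384.2 (chromosome 16, 88881038 to 88887136, plus strand) covers 3 of the 12 of CBFA2T3 (88874858 to 88977204, minus strand). The letters of 5 of these 6 sites could be read in the antisense transcripts of GENCODE 29 and are given on the host strand. They are printed as a description, since counts per gene do not show whether any read lies at these sites. Each run holds the last 27 bases of the host intron and the first 3 of the exon, and the capitals mark the AG that ends the intron.
TAL1-201, intron 1, chr1:47225887-47225916, minus strand: tccgcttgtctgtctgtctgcccacAGgat
TAL1-205, intron 1, chr1:47228520-47228549, minus strand: ggggtcttctgtcttgttctggcacAGgtg
TAL1-202, intron 1, chr1:47229349-47229378, minus strand: cctggaaactcgctttgggcgcggcAGatc
CBFA2T3-201, intron 5, chr16:88886140-88886169, minus strand: cccaggccctccttccccaccccacAGgca
CBFA2T3-201, intron 8, chr16:88881487-88881516, minus strand: gctgaaggctgcgccgcccgcccccAGctc

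All 5 introns end in AG, as did 99.1% of the 1981 host 3′ splice sites that could be read in the same way across all antisense genes. Of the 20 bases before the AG, 17 were pyrimidines (C or T) at CBFA2T3 intron 5 and 13 at CBFA2T3 intron 8. The count was 15 at the TAL1-201 and TAL1-205 sites and 10 at the TAL1-202 site. The median over the 1981 sites was 15, with quartiles of 13 and 16, so only the TAL1-202 site lay below that middle range and only the CBFA2T3 intron 5 site above it. The longest unbroken C or T run before the AG was 12 bases at CBFA2T3 intron 5 and between 3 and 6 at the other 4 sites. TAL1-205 is a non-coding transcript, and the other 4 sites belong to coding transcripts.

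Own-exon counts were set against opposite-strand counts, beginning with TAL1. AL135960.1 held 2760 counts in replicate 1 and 3925 in replicate 2, and TAL1 held 22 and 28. In both libraries every count of the antisense gene was far above that of the host, and the replicates of each gene lay close together. Per kb of merged exon, AL135960.1 held 177 times the counts of TAL1 in replicate 1 (exact 95% interval 117 to 283) and 198 times in replicate 2 (137 to 298). These intervals are conditional binomial and cover counting error only. The log2 ratio averaged 7.55 ± 0.11 (SD, n = 2), and AL135960.1 took 99.3% ± 0.0583 of the counts held by it and TAL1 together. Reads tallied on no feature, 97.3% and 97.4% of the uniquely mapped reads, are outside this share. Its exons overlay exons of TAL1 for 845 of their 4036 bases and introns of TAL1 for the remaining 79.1%.

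CBFA2T3 hosts 2 antisense genes with opposite values. AC092384.2 held 2033 and 2612 counts and CBFA2T3 held 15 and 19. The ratio per kb of exon was 265 in replicate 1 (exact 95% interval 160 to 474) and 269 in replicate 2 (172 to 447), with a mean log2 ratio of 8.06 ± 0.015 (SD, n = 2). AC092384.1 (chromosome 16, 88939789 to 88951524, plus strand) held 2 and 0 counts on 1812 bases of exon. All of its exon bases lie on introns of CBFA2T3, over no exon base and over 0 of the 12 3′ splice sites. Its ratio to CBFA2T3 per kb was 0.439 in replicate 1 (0.0488 to 1.89), an interval that includes equal levels, and in replicate 2, with 0 counts, at most 0.706. AC092384.3, a sense intronic gene on the same strand as CBFA2T3 that was picked after its values were seen, held 4 and 1 counts on 2873 bases. Within this host, AC092384.2 thus held nearly all counts assigned to these genes, and the others, the host included, held few.

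**Figure D1:**
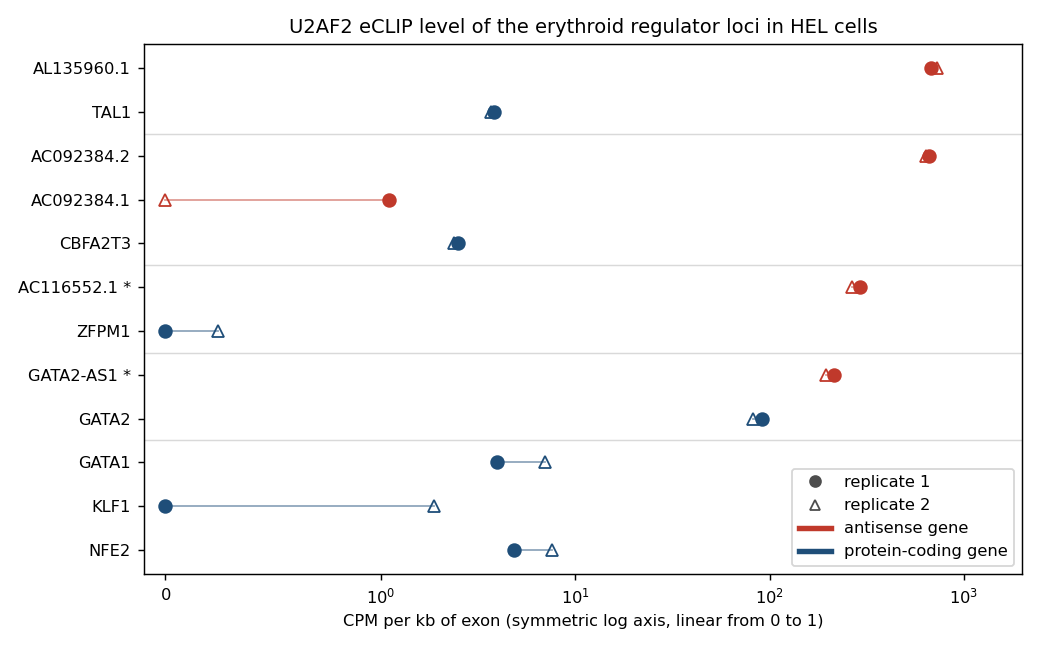
Level of each gene in CPM per kb of merged exon (symmetric log axis) in replicate 1 (filled circles) and replicate 2 (open triangles), with antisense genes in red above their hosts in blue; asterisks mark genes outside the 10 members. AL135960.1 and AC092384.2 sit between 641 and 730, while TAL1 and CBFA2T3 sit between 2.39 and 3.83.

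ZFPM1 and GATA2 also contain exons of antisense genes, which are not among the 10 members. AC116552.1 and GATA2-AS1 were picked after their values were seen. AC116552.1 (chromosome 16, 88512960 to 88531053, minus strand) held 216 and 259 counts, and ZFPM1 (88453317 to 88537016, plus strand) held 0 and 2. In replicate 1, with 0 counts on ZFPM1, the exact 95% interval of the ratio per kb of exon began at 484, and in replicate 2 the ratio was 1079 (exact 95% interval 296 to 8961). All 733 exon bases of AC116552.1 lie on ZFPM1 introns and cover none of its 12 annotated 3′ splice sites. Counts per gene do not show where on these exons the reads lie.

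GATA2 was the exception among the coding members. GATA2 (chromosome 3, 128479427 to 128493185, minus strand) held 411 and 485 counts on its own exons, and GATA2-AS1 (128489212 to 128502348, plus strand) held 492 and 594. The ratio of GATA2-AS1 to GATA2 per kb was 2.34 in replicate 1 (2.05 to 2.67) and 2.39 in replicate 2 (2.12 to 2.703), with a mean log2 ratio of 1.24 ± 0.023 (SD, n = 2). GATA2-AS1 took 54.5% and 55.1% of the counts held by it and GATA2 together. No exon base of either gene lies on an exon of the other, and 0 of the 8 3′ splice sites of GATA2 lie inside exons of GATA2-AS1. In all, 855 of the 4459 exon bases of GATA2 lie within the span of GATA2-AS1, opposite its introns, and 875 of the 2283 exon bases of GATA2-AS1 lie opposite introns of GATA2.

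**Figure D2:**
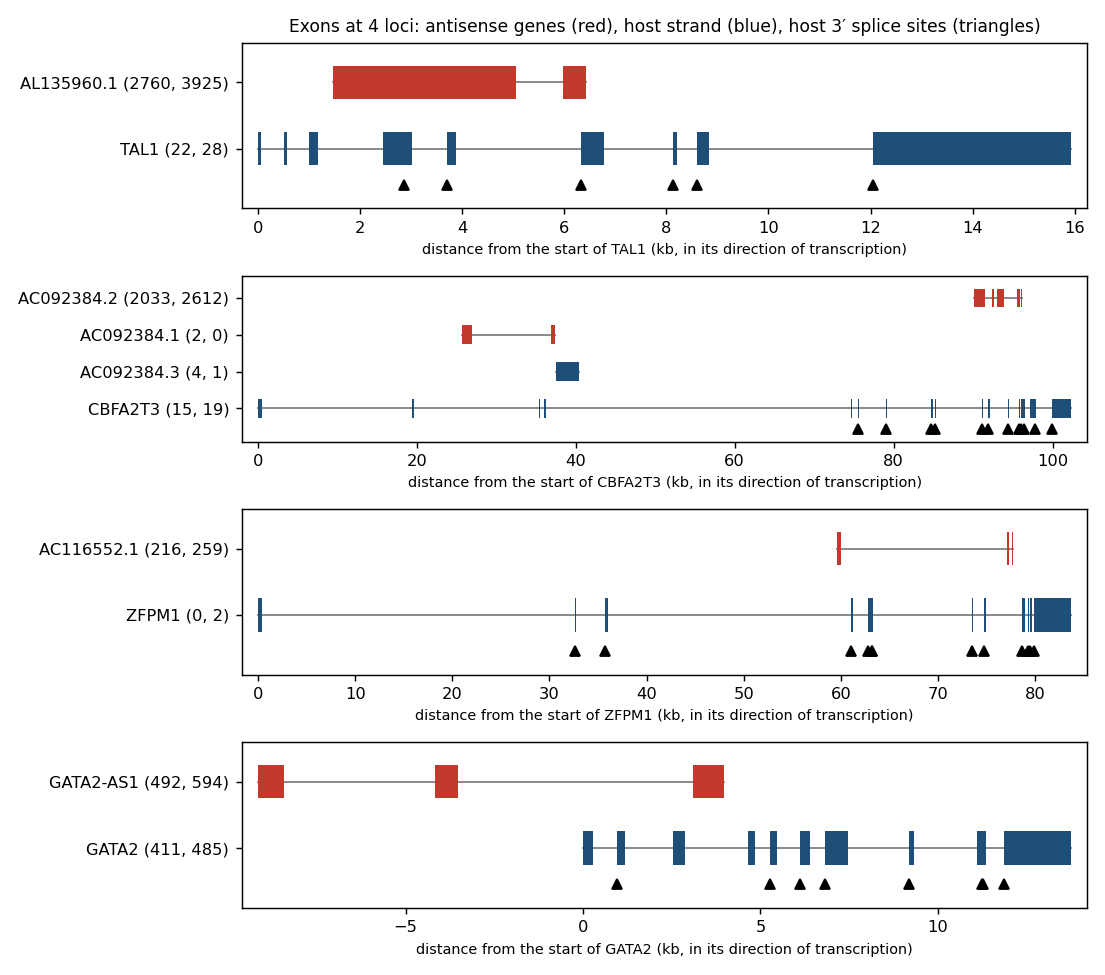
Merged exons (boxes) at TAL1, CBFA2T3, ZFPM1 and GATA2, with antisense genes in red, genes on the host strand in blue, host 3′ splice sites as triangles and counts in replicates 1 and 2 in brackets; the horizontal axis is the distance from the host start in kb. The exons of AL135960.1 and AC092384.2 cover 3 host 3′ splice sites each, and those of AC092384.1, AC116552.1 and GATA2-AS1 cover 0.

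No opposite-strand exon lies within the spans of the other 3 coding members, and all held few counts. GATA1 (X chromosome, 48786554 to 48794311, plus strand) held 6 and 14 counts, NFE2 (chromosome 12, 54292111 to 54301121, minus strand) 12 and 25, and KLF1 (chromosome 19, 12884422 to 12887199, minus strand) 0 and 4. Their values rest on few reads, and the intervals of the 2 libraries overlap. For GATA1 the exact Poisson 95% intervals were 2.20 to 13.1 and 7.65 to 23.5 counts in replicates 1 and 2, and for KLF1 they were 0 to 3.69 and 1.09 to 10.2.

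In level per kb of exon the order of the members was AL135960.1, AC092384.2, GATA2, NFE2, GATA1, TAL1, CBFA2T3, KLF1, AC092384.1 and ZFPM1. AL135960.1 averaged 704 ± 36.2 CPM per kb and AC092384.2 averaged 650 ± 13.2 CPM per kb (SD, n = 2 each). GATA2 followed with 86.5 ± 6.96 CPM per kb, a level 7.52-fold below AC092384.2 and 13.9-fold above NFE2. The remaining levels ran from 6.21 ± 1.96 CPM per kb for NFE2 to 0.123 ± 0.174 CPM per kb for ZFPM1. From NFE2 downward the counting intervals of each pair of neighbours overlapped, so the order within each such pair was not resolved at this depth. TAL1 averaged 3.76 ± 0.102 CPM per kb and CBFA2T3 averaged 2.44 ± 0.0741 CPM per kb.

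Of the 10 members, 6 reached 10 counts in both libraries, namely AL135960.1, AC092384.2, GATA2, TAL1, CBFA2T3 and NFE2. The same was true of 15.4% of all genes, 24.8% of protein-coding genes (for the members, 4 of 7) and 37.6% of antisense genes (2 of 3). The 10 members together held 5261 and 7114 counts, of which AL135960.1 and AC092384.2 took 91.1% and 91.9%. Over both libraries the median of the 7 coding members was 34 counts, against 4 for all 19835 protein-coding genes. GATA2 held more counts per kb of exon than 98.6% of them, and ZFPM1 more than 30.8%.

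No member passed the test of a difference between the replicates. Across the 8983 genes that reached 10 counts in both libraries, an exact conditional binomial test with Benjamini-Hochberg adjustment called 45 (0.501%) between the libraries, and 0 of the 6 members. The smallest p among the members was that of AL135960.1 (exact p = 0.00342, adjusted p = 0.228). This gene, with 2760 and 3925 counts the most heavily counted member, was higher in replicate 2 by 0.10 on the log2 scale. The adjusted exact p was 0.698 for GATA2, 0.851 for NFE2 and 0.910 for AC092384.2. A negative binomial test in edgeR called 0 members, with a dispersion estimated from the same 2 libraries taken as 1 group. The difference under test thus enters that dispersion, so this result adds little. Both tests compare 2 libraries of 1 group, and nothing in the table separates biological from technical spread.

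The pairs of members were then set beside all 4735 antisense genes with exons inside a protein-coding gene of the other strand. In 50.6% of these pairs the antisense gene held at least 2-fold more counts per kb of exon than its host in both libraries, and in 9.29% the host did. At the loci described here the antisense gene was higher by that rule in 4 of 5 pairs, and neither gene was in the pair of AC092384.1 and CBFA2T3. By total counts AL135960.1 ranked 10 and AC092384.2 ranked 17 among the 4735 antisense genes. GATA2-AS1 ranked 118, AC116552.1 ranked 343 and AC092384.1 ranked 3094.

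Across those pairs the levels of antisense genes and of their hosts both differed with position on the host. Antisense genes with a host 3′ splice site inside their exons had a median of 60.3 counts per kb over both libraries (1377 genes). The median was 22.4 for those with host exon bases but no such site (1472 genes), and 5.07 for those on introns or partly outside the host (1886 genes). AL135960.1 and AC092384.2, with 1656 and 1519 counts per kb, belong to the first set. AC116552.1 with 648, GATA2-AS1 with 476 and AC092384.1 with 1.10 belong to the last and lay on both sides of its median. The hosts of the 3 sets had medians of 2.12, 1.57 and 0.924 counts per kb, in the same order. The antisense gene was at least 2-fold higher in both libraries in 60.9%, 54.1% and 40.4% of their pairs. These values describe genes that share 2 libraries and carry no test.

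**Figure D3:**
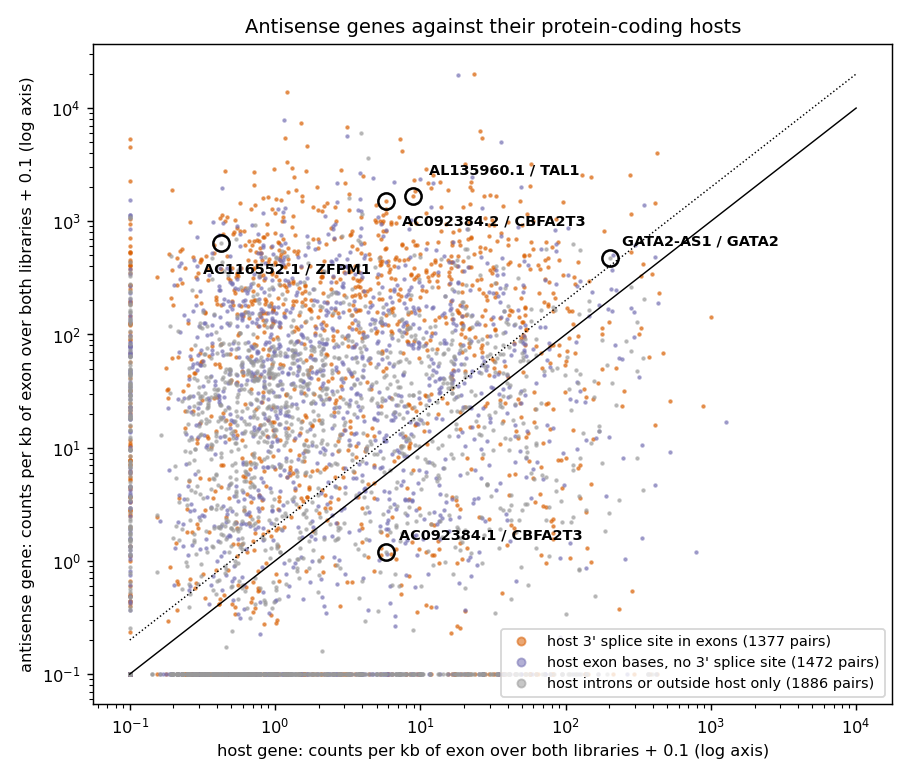
Counts per kb of exon over both libraries for 4735 antisense genes (vertical) against their protein-coding hosts (horizontal), with 0.1 added on log axes, coloured by the position of the antisense exons on the host; the solid line marks equal levels and the dotted line a 2-fold difference. The circled pairs of AL135960.1, AC092384.2, AC116552.1 and GATA2-AS1 lie above the dotted line and that of AC092384.1 lies below the solid line.

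Protein partners of TAL1 and its corepressors were then described in the same way. Of 24 such genes, 6 reached 10 counts in both libraries, against 24.8% of protein-coding genes. Their median was 2.82 log2 CPM, against 1.78 for all protein-coding genes. NCOR1, a corepressor that binds histone deacetylases, led with 110 and 144 counts, and KDM1A, a histone demethylase, followed with 104 and 114. HDAC1, a histone deacetylase, held 20 and 41 counts and RUNX1, a core blood transcription factor, 25 and 30. Antisense genes lie in 8 of the 24 genes, and 9 of their 10 antisense genes were at least 2-fold higher per kb than the host in both libraries (beside 50.6% of all 4735 pairs). AC002553.1, inside NCOR1, held 176 and 323 counts, and AL031428.1, inside KDM1A, held 47 and 73.

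The next 3 pairs were picked after their values were seen. AC006064.2 held 3070 and 4234 counts and its host CHD4, a chromatin remodeller, 5 and 9, with 5 CHD4 3′ splice sites inside the antisense exons. AC132216.1 held 584 and 766 counts and its host LMO2, the bridging protein of the TAL1 complex, 4 and 8, with no LMO2 site inside. AC008781.1 held 328 and 509 counts and its host HDAC3, a histone deacetylase, 1 and 7. In these pairs nearly all counts of antisense gene and host stood on the antisense gene.

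Relatives of the members mostly held few counts. The median over both libraries was 1.5 counts in the GATA and FOG list and in the KLF list, against 4 for all protein-coding genes. None of the 6 other GATA and FOG family genes reached 10 counts in both libraries, as 24.8% of protein-coding genes did. TRPS1, a GATA-type repressor, led with 8 and 7 counts, and the counts were 3 and 1 for ZFPM2, the FOG1 relative, 0 and 2 for GATA4, and 0 and 1 for GATA6. GATA3 and GATA5 held 0 in both libraries. All these counts are far below the 411 and 485 of GATA2. Of 16 other KLF genes, 7 held 0 in both libraries, beside 4009 of the 19835 protein-coding genes. Only KLF11 passed (6.25%, beside 24.8% of protein-coding genes), with 46 and 79 counts. KLF9 held 5 and 16, KLF13 5 and 12 and KLF3 5 and 2. The antisense gene inside KLF11, AC104794.4, held 14 and 12 counts, and was not 2-fold higher per kb in both libraries.

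The CNC and small Maf genes, which include the relatives and dimer partners of NFE2, held more. Of 8 genes, 5 passed the limit of 10 counts in each library (62.5%, beside 24.8% of protein-coding genes). The median was 3.98 log2 CPM, against 1.78 for all protein-coding genes. NFE2L3, a CNC factor, held 1345 and 1939 counts, or 1394 ± 85.1 CPM (SD, n = 2). Exons of HNRNPA2B1, an RNA-binding protein gene on the other strand, lie within the span of NFE2L3 without touching its exons. HNRNPA2B1 as a whole gene held 7 and 17 counts. NFE2L2, the oxidative stress regulator, held 35 and 67 counts, MAFF, a small Maf gene, 41 and 35, and NFE2L1 27 and 23. AC079305.1, inside NFE2L2, held 50 and 70 counts, and AC004477.2, inside NFE2L1, held 27 and 23.

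Among 22 other blood cell transcription factors, 6 passed (27.3%, beside 24.8% of protein-coding genes), with a median of 2.58 log2 CPM. STAT5A, which carries signals from the erythropoietin receptor, held 237 and 310 counts, and ETV6, an ETS repressor, 24 and 33. SENCR held 279 and 367 counts and its host FLI1, a megakaryocytic ETS factor, 55 and 63. MYB-AS1 held 481 and 585 counts and its host MYB, a progenitor factor, 20 and 34. MEIS1-AS2 held 504 and 703 counts and its host MEIS1, a homeobox factor, 2 and 6, a pair picked after its values were seen. SPI1 and CEBPA, factors of the myeloid lineages, held 0 in both libraries.

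Known targets of the regulators were set beside all protein-coding genes. Of 30 erythroid and megakaryocyte target genes, 6 passed (20%, beside 24.8% of protein-coding genes), and 4 held 0 in both libraries, as did 4009 of the 19835 protein-coding genes. Their median was 1.58 log2 CPM, below the 1.78 of all protein-coding genes. Per kb of exon it was 1.36 counts over both libraries, above the 0.911 of all protein-coding genes, and the median count was 4 in both sets. GP1BA, a platelet receptor gene that lies opposite CHRNE, held 312 and 413 counts, EPB42, a red cell membrane protein gene, 87 and 153, and RHD, a blood group gene opposite RSRP1, 82 and 80. Globin and RHD reads may be shared with near-identical copies, and reads that map to several places are outside these counts.

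Over the 6 lists together, 39 antisense genes lie in 27 of the 106 genes. The antisense gene was at least 2-fold higher per kb in both libraries in 29 of 39 pairs (74.4%, beside 50.6% of all pairs), and the host in 0 (beside 9.29%). Among the 10 pairs with a host 3′ splice site inside the antisense exons, it was higher in 9. Of all 1377 pairs of that kind, it was higher in 60.9%. Some of these pairs rest on few counts. AC021546.1 held 1 and 2 and its host ZFPM2 3 and 1. Among the 9, AC091588.3 held 2 and 2 (GATA6 0 and 1) and AL121787.1 2 and 3 (BACH2 1 and 1). Over all pairs with at least 10 counts in each library the share was 67.3%. The 39 antisense genes held 6534 and 8926 counts and their 27 hosts 496 and 656.

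**Figure D4:**
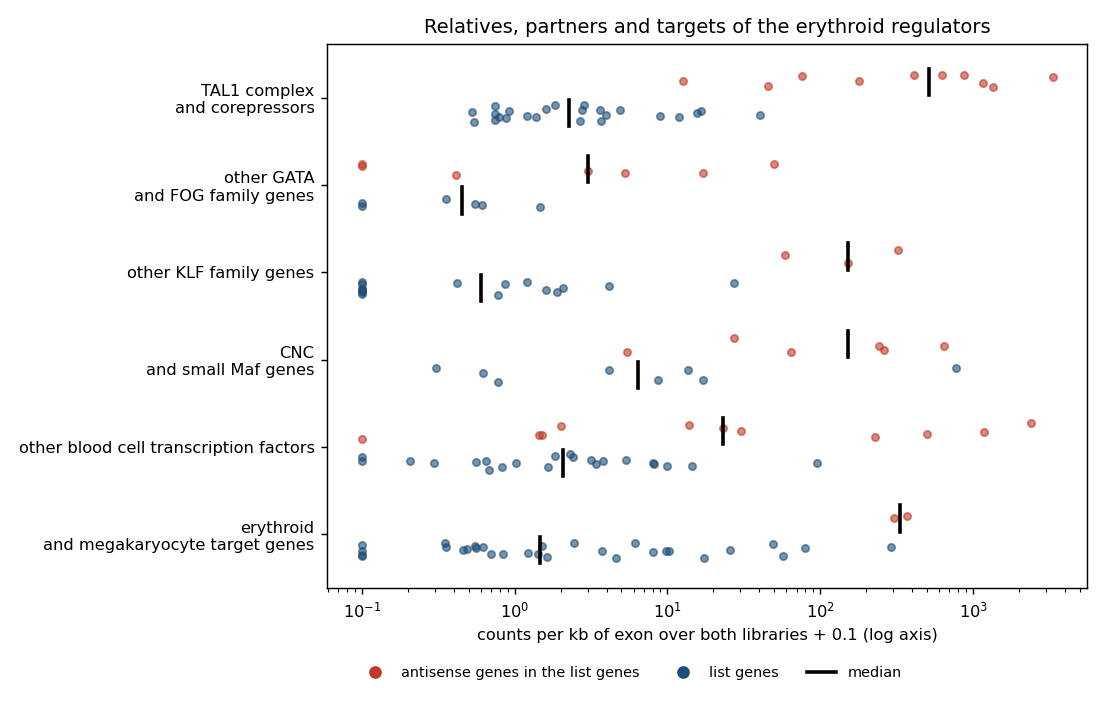
Counts per kb of exon over both libraries, with 0.1 added on a log axis, for the genes of 6 lists (blue) and the antisense genes inside them (red, drawn above), with medians as black bars. In each list the median of the antisense genes lies to the right of that of the list genes.

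The length used for each gene affected these ratios. Per kb of gene span rather than exon, the log2 ratio was 8.75 for AL135960.1 over TAL1, 11.16 for AC092384.2 over CBFA2T3, 10.10 for AC116552.1 over ZFPM1, -0.96 for AC092384.1 over CBFA2T3 and 0.34 for GATA2-AS1 over GATA2, which is below 2-fold. No direction changed.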

How the data were processed

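Per the labels' protocols, HEL cells were crosslinked with ultraviolet light at 400 mJ/cm2, lysed, sonicated and treated with RNase I, and U2AF2 was immunoprecipitated for libraries read as paired ends of 100 bases. The submitters' processing notes name STAR 2.7.0f, cutadapt and the build GRCh38.p10. The deposited table holds raw counts per gene, and 4 tallies of unassigned reads (98.3% of all reads in each library) stayed out of totals and tests. The counting step, strand setting, annotation release and duplicate removal are not given in the sources used here.

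Genes, exons, splice sites and transcript letters came from GENCODE 29 (GRCh38), and the authors may have used another release. CPM used TMM factors (1.01 and 0.987) from edgeR 4.0.16 in R 4.3.3, computed on genes that reached 10 counts in both libraries, and log2 CPM a prior count of 2. Other steps used Python 3.11.15 and scipy 1.17.1. The members and lists were chosen with earlier results of these data known. Named genes were the members, genes whose exons cover member exons, the 4 highest of each list, and list genes with an antisense gene and at least 50 counts over both libraries or at 0 in both, with genes outside that rule marked, and not every gene it gave is reported here. With 1 group, no replicated test exists, so ratios carry counting intervals. The exact test was checked on simulated data.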

Additional observations from a re-analysis of the deposited data

How the results depend on the processing

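No paired analysis was possible because the samples form 1 group. Of 80 alternative values, 0 were marked as reversed, but only the log2 ratios have a direction that could reverse, and all kept theirs. In all, 27 were marked as moved, beyond the spread between replicates where the result has one. For the ratios of AC092384.1 and AC116552.1, with a count of 0 in 1 library, the spread used was 1.88 and 1.46 in log2. Few values could pass spreads that wide. The number of members detected and the number of genes that differed between replicates have no such spread. With at least 50 counts in each library 3 members were detected, and without either replicate 6 to 7. The log2 ratio of AC092384.2 to CBFA2T3 was 8.19 on exon bases free of other genes, 11.16 per gene span, 8.04 with a prior count of 0.5 and 8.05 to 8.07 without either replicate. Per gene span the log2 ratio was 8.75 for AL135960.1 over TAL1 and 0.34 for GATA2-AS1 over GATA2. Without either replicate it was 7.47 to 7.63 for AL135960.1 and 1.23 to 1.26 for GATA2-AS1, and it could be had in 1 library only for AC092384.1 (-1.19) and AC116552.1 (10.08), since a count was 0 in the other. Without the count filter 71 genes differed between replicates, and by the negative binomial test 9 did, with 0 members in both. List medians in log2 CPM with a prior count of 0.5 were 2.51 for TAL1 partners, -0.32 for GATA and FOG relatives, -0.063 for KLF relatives, 2.22 for other blood factors and 0.57 for targets. For list genes that reached 10 counts in both libraries they were 4.69, 5.75 for KLF relatives, 5.11 for CNC and small Maf genes, 4.65, 5.98 and, for coding members, 4.30. Without either replicate they were 1.04 to 1.10 for KLF relatives and 3.77 to 3.996 for coding members. The share of antisense genes above their hosts was 44.7% at 4-fold, 52.1% for single-exon antisense genes, 67.3% for pairs with at least 10 counts in each library and 54.2% to 55.5% without either replicate. GATA1, KLF1, ZFPM1 and AC092384.1 held 14 or fewer counts in each library, which limits their precision.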

Other observations

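Opposite-strand genes also lie beside or across KLF1 and NFE2 without an exon inside them, and were looked at after the values of the members were known. AC078778.2 (chromosome 12, 54276631 to 54345083, plus strand) spans all of NFE2 within an intron and held 13 counts in each library, or 19.97 ± 3.92 CPM per kb of exon (SD, n = 2), beside 6.21 ± 1.96 CPM per kb for NFE2. AC020934.2 (chromosome 19, 12880969 to 12884088, plus strand) ends just before the 3′ end of KLF1 and held 33 and 40 counts, or 68.8 ± 4.23 CPM per kb, while KLF1 held 0 and 4 counts.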
